A study of Mus musculus with 4 samples.

Results

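*Id1*, *Id2*, *Id3* and *Id4*, the 4 genes of the inhibitor of DNA binding family, were examined in 4T1 cells sorted by mitochondrial membrane potential (MMP). They are 4 of the 20197 genes in the deposited table, were matched by their Ensembl gene identifiers, and all 4 were measured in every library. The set was chosen by family membership, except that *Id2* was picked for its difference between high MMP and low MMP cells. The values of *Id2* are therefore given as a description with no test, and only *Id1*, *Id3* and *Id4* were tested.

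4T1 is a mouse breast cancer line, triple negative in type, that forms lung metastases in mice, and the cells here were wildtype (WT) and from culture. MitoSpy Red was added at 20 nM as a dye that gathers in mitochondria of high membrane potential, and the brightest 5% and the dimmest 5% were collected. Each group had 2 samples, numbered 1 and 2, of 100000 cells each, so 4 libraries were compared and cells of intermediate staining were not part of the comparison. High and low MMP cells came from the same line and differed by the sort gate alone, as far as the labels say. Values are normalized reads, the reads of a gene after the reads assigned to genes in a library were scaled to 20000000. Differences are those of log2(value + 1), with low MMP subtracted from high MMP, and on this scale the change of a weakly expressed gene is understated.

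Id proteins are helix-loop-helix (HLH) proteins that lack the basic region other members of this class use to touch DNA. They pair with E proteins, the broadly expressed basic HLH (bHLH) factors, and the resulting dimers do not bind the E-box sites of their targets. Transcription of Id genes is classically induced by bone morphogenetic proteins (BMPs) through the receptor-activated Smads, and also by growth factors through Egr1, while the stress factor Atf3 represses *Id1*. The proteins are short-lived, and some of them are removed by the anaphase-promoting complex. In mammary epithelium, *Id1* and *Id2* have been studied in growth and in differentiation respectively, and *Id1* and *Id3* in the outgrowth of breast cancer cells in the lung.

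The family shares its HLH region, and the 120 coding bases that are most alike in the 4 genes are shown because they are the sequence by which the family is defined and by which reads of its members might be confused. They were read from GENCODE M21 transcripts on build GRCm38, 5′ to 3′ on the coding strand, and capitals mark the 69 bases that are the same in all 4. Each lies in coding exon 1 of its gene, at chr2:152736518-152736637 (plus strand) for *Id1*, chr12:25095783-25095902 (minus strand) for *Id2*, chr4:136144002-136144121 (plus strand) for *Id3* and chr13:48261693-48261812 (plus strand) for *Id4*.
Id1: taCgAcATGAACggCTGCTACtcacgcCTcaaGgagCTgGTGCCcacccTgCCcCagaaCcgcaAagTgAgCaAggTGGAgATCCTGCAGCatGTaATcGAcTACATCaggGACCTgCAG
Id2: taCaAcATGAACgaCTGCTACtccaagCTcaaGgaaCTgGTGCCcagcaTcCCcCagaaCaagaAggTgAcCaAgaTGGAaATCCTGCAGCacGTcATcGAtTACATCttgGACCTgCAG
Id3: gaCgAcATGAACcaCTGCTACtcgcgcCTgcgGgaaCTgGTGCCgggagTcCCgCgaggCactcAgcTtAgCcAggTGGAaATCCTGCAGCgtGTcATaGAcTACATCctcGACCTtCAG
Id4: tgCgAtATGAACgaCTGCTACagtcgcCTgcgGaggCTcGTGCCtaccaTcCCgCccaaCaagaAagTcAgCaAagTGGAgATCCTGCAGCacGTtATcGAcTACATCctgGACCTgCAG

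In this block *Id1* and *Id2* were the most alike pair, with 81.7% of bases identical, and the other pairs shared between 70.8% and 77.5%. The open reading frames are short, at 148 codons for *Id1*, 134 for *Id2*, 119 for *Id3* and 161 for *Id4*. Despite the likeness, no stretch of 75 bases, the read length, of *Id1*, *Id2* or *Id3* transcripts occurred in a transcript of any other gene on either strand. For *Id4*, 36 such stretches (0.954% of its own) occurred on the opposite strand in the non-coding gene *Gm49291*. The library kit marked strand, but the strand setting used for counting is not given in the sources used here.

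The recovered depth was 22591970 to 26395015 reads per library. The libraries stood apart in ways that the sort does not name. The chi-square per gene was 43.2 for the pair of high MMP libraries and 9.08 for the pair of low MMP libraries, so neither pair was 1 library deposited again. High MMP sample 1 and low MMP sample 2 both carried high levels of some immediate-early genes, which respond to handling and stress within minutes. *Fos*, chosen after its values were seen, was at 2419 and 2357 normalized reads in these 2 libraries. It was at 521 in high MMP sample 2 and 326 in low MMP sample 1. Not all such genes followed this, as *Egr1* was lower in low MMP sample 2 (8141) than in high MMP sample 2 (9783). Markers of 4T1's epithelial origin were abundant in all 4 libraries, with 12 of 13 measured (*Krt18* from 13139 to 19276 normalized reads). Their median log2 difference was 0.03, and it was -0.19 without high MMP sample 1 and -0.09 without low MMP sample 1. Both high MMP libraries were above in 3 of 12 and both low MMP libraries in 1 of 12 (14.3% and 23.7% of all genes with a mean of at least 10). Differences ran both ways, with *Krt14* and *Cldn4* at 0.32 and 0.25 and *Cdh1*, the E-cadherin gene, at -0.34. Of 9 fibroblast markers 6 were measured, and they summed to 344 and 407 normalized reads in high MMP samples and to 583 and 634 in low MMP samples. Most of this came from *Pdgfra*, which was at 319 and 363 against 536 and 589 and was called lower by DESeq2 (adjusted p = 0.0412) but not by limma (adjusted p = 0.472). *Col1a1*, the collagen gene of fibroblasts, was at 6.06 and 30.1 in high MMP samples, with overlapping groups. Of 10 immune markers 4 were measured (sums of 72.0 to 158, most of it *Cd68* at 59.9 to 149), and of 8 endothelial markers 3 (sums of 5.02 to 12.9). Their part in the results was not tested.

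*Id1* was higher in high MMP cells, *Id2* was higher in the same direction, *Id3* leaned the same way with overlapping groups, and *Id4* leaned the other way at a low level. No gene of the table passed an adjusted p of 0.05 in limma, the main test (0% of 20197 genes), and at an unadjusted p under 0.05 the share was 9.96%. In these bulk samples, fewer cells with a transcript and less of it per cell cannot be told apart. The paper counts its replicates as independent experiments or tumors, but neither it nor the labels tie sample numbers 1 and 2 to cultures or sort days, so p-values measure the spread between these samples.

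*Id1* (chr2:152736251-152737410, plus strand, ENSMUSG00000042745) was at 1295 and 911 normalized reads in high MMP samples 1 and 2, and at 472 and 546 in low MMP samples 1 and 2. These rest on 1709, 1089, 541 and 617 reads. Both high MMP libraries lay above both low MMP libraries. The means were 1103 ± 271 and 509 ± 52.7 (SD, n = 2 each), a ratio of 2.17, and the log2 difference was 1.10 (SE 0.20, 95% interval 0.54 to 1.65). This difference was positive in all 4 pairings of a high with a low MMP library, from 0.74 for the samples numbered 2 to 1.46 for the samples numbered 1. By size it was the 29th largest positive difference among 12902 genes whose mean was at least 10. It did not pass the adjusted threshold in limma (unadjusted p = 0.0049 in limma, Benjamini-Hochberg adjusted p = 0.472). DESeq2 on the recovered reads, which called 0.584% of all genes, called *Id1* (log2 difference 1.16, adjusted p = 7.98e-06), whereas edgeR without a block did not (adjusted p = 0.589). Over 15 alternatives in tool, scaling, filter and libraries, the adjusted p of *Id1* ran from 3.27e-06 to 0.90, and the same upper value was reached by the other genes named here with a DESeq2 call except *Top2a* (0.909), with DESeq2 giving their lowest.

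*Id2* (chr12:25093799-25097140, minus strand, ENSMUSG00000020644) was at 476 and 266 normalized reads in high MMP samples 1 and 2, and at 190 and 168 in low MMP samples 1 and 2, from 628, 318, 218 and 190 reads. As the gene was chosen for it, the separation of the groups is no finding. Its size was uneven between libraries: the high MMP samples differed from each other by 0.84 on the log2 scale, and the low MMP samples were close. The means were 371 ± 148 and 179 ± 15.4 (SD, n = 2 each), a ratio of 2.07 and a log2 difference of 0.99. In the 4 pairings the difference ran from 0.48 (high MMP sample 2 against low MMP sample 1) to 1.49 (high MMP sample 1 against low MMP sample 2). The difference of *Id2* was 0.57 without high MMP sample 1 and 1.41 without high MMP sample 2.

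*Id3* (chr4:136143497-136145755, plus strand, ENSMUSG00000007872) was at 3565 and 2187 normalized reads in high MMP samples 1 and 2, and at 1490 and 2502 in low MMP samples 1 and 2. The groups overlapped, because low MMP sample 2 exceeded high MMP sample 2. The means were 2876 ± 974 and 1996 ± 716 (SD, n = 2 each), with a log2 difference of 0.53 (SE 0.36, 95% interval -0.45 to 1.51, limma adjusted p = 0.745). The interval holds 0 as well as differences larger than that of *Id2*, so these libraries do not settle whether *Id3* differed. The 4 pairings gave 1.26, -0.19, 0.51 and 0.55, in the order samples 1, samples 2, high 1 with low 2, and high 2 with low 1.

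*Id4* (chr13:48261228-48266026, plus strand, ENSMUSG00000021379) was at 34.1 and 20.1 normalized reads in high MMP samples 1 and 2, and at 31.4 and 44.3 in low MMP samples 1 and 2. These values rest on only 24 to 50 reads per library, and the groups overlapped. The log2 difference was -0.49 (SE 0.37, 95% interval -1.5 to 0.51, limma adjusted p = 0.770), with means of 27.1 ± 9.91 and 37.8 ± 9.11 (SD, n = 2 each). *Id4* overlaps the antisense genes *A330033J07Rik* and *Gm49291*, which are not among the genes of the deposited table, so no values of them were available.

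Of the 4 genes, 2 had both high MMP libraries above both low MMP libraries, where 14.3% of those 12902 genes did so and 23.7% had the groups the other way round. As *Id2* was picked for this property, the count says nothing about the family. Of the other 3 genes, 1 did so.

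**Figure D1:**
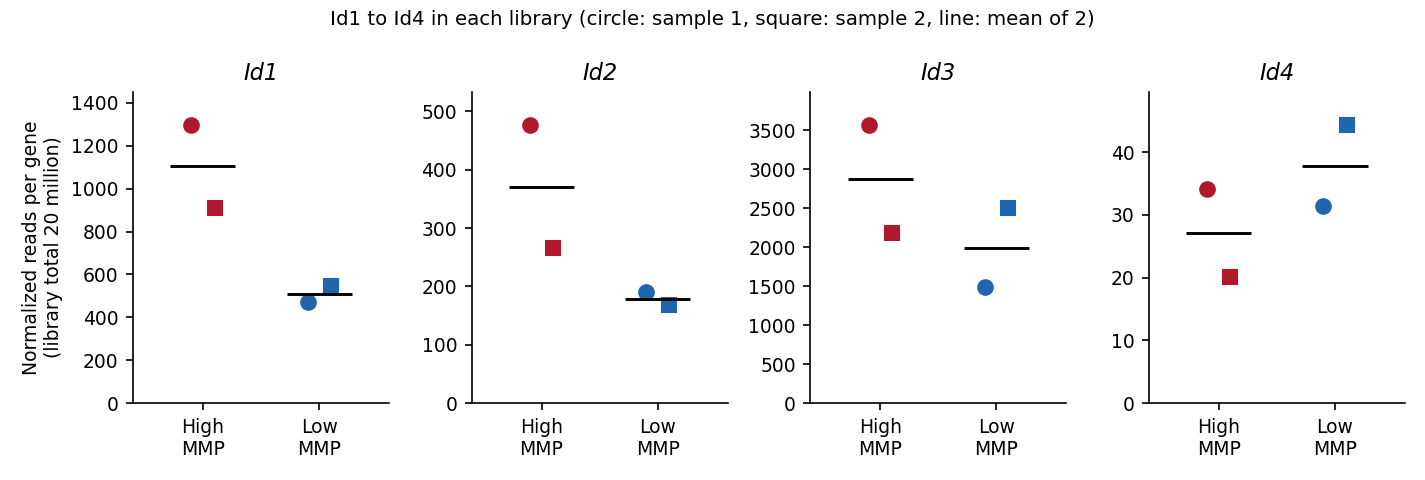
Normalized reads per gene (vertical axis, library total 20000000, a separate scale for each gene starting at 0) in high MMP (red) and low MMP (blue) cells, with circles for sample 1, squares for sample 2 and lines for the mean of 2. For *Id1* the high MMP libraries (1295 and 911) lie above the low MMP libraries (472 and 546), for *Id2* likewise (476 and 266 against 190 and 168), and for *Id3* and *Id4* the groups overlap.

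Levels between genes were compared as normalized reads per kilobase of exon. *Id3* was the most abundant, at 1991, 1221, 832 and 1397 normalized reads per kilobase in high MMP samples 1 and 2 and low MMP samples 1 and 2. *Id1* followed at 1116, 786, 407 and 471, *Id2* at 195, 109, 78.0 and 69.0, and *Id4* at 8.86, 5.22, 8.15 and 11.5. This order held in all 4 libraries. *Id3* exceeded *Id1* by 1.55 to 2.97 times within a library, but across libraries their ranges overlapped, as the lowest *Id3* level (832) was under the highest *Id1* level (1116). The step from *Id1* to *Id2* was 5.22 to 7.20 times, and the step from *Id2* to *Id4* 6.0 to 22.0 times, with no overlap in either. Dividing by the length of the first listed transcript in place of all exons kept the order, at means of 1906 for *Id3*, 863 for *Id1*, 217 for *Id2* and 8.43 for *Id4*.

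The 4T1 libraries thus held mainly *Id3* and *Id1* transcripts. *Id3* made up 60.1%, 57.6%, 62.8% and 71.7% of the summed Id level per kilobase in high MMP samples 1 and 2 and low MMP samples 1 and 2, and *Id1* 33.7%, 37.0%, 30.7% and 24.2%. *Id2* made up between 3.54% and 5.90%, and *Id4* less than 1% throughout. The share of *Id1* was higher in both high MMP libraries than in both low MMP libraries, while that of *Id3* was lower in both. Shares of the same sum are tied to each other, so the lower share of *Id3* is not a lower level. The log2 difference of the *Id3* level was 0.53, with overlapping groups.

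The partners that Id proteins bind were measured well. *Tcf3*, which encodes the E proteins E12 and E47, was at 3219 and 3505 normalized reads in high MMP samples and at 3865 and 3816 in low MMP samples, a log2 difference of -0.19 (SE 0.09, limma adjusted p = 0.589). *Tcf4*, which encodes E2-2, was at 2799, 2604, 2450 and 2651 in the same order, and *Tcf12*, which encodes HEB, at 2641, 3171, 2861 and 2404. Their log2 differences were 0.08 and 0.14, with limma adjusted p-values of 0.855 and 0.850, and for both the groups overlapped.

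Set against each other, the summed Id level per kilobase was 3.10, 1.82, 1.08 and 1.63 times the summed E protein level in high MMP samples 1 and 2 and low MMP samples 1 and 2. The E protein sum itself ran from 1069 to 1231 normalized reads per kilobase, and the Id sum from 1325 to 3311. Leaving *Id2* out gave ratios of 2.91, 1.72, 1.01 and 1.57. Per kilobase, the ratio was higher in both high MMP libraries, by a narrow margin between high MMP sample 2 and low MMP sample 2. Its size and this separation rest on dividing by all annotated exons of each gene, which are longer for the E protein genes. Without division by length, the Id sums were 5370, 3385, 2183 and 3260 normalized reads in the same order. The E protein sums were 8658, 9280, 9176 and 8871. On these sums the ratio was slightly lower in high MMP sample 2 than in low MMP sample 2, so the groups overlapped. The ratio was not recomputed with other lengths. These are transcript levels, and no protein was measured here.

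**Figure D2:**
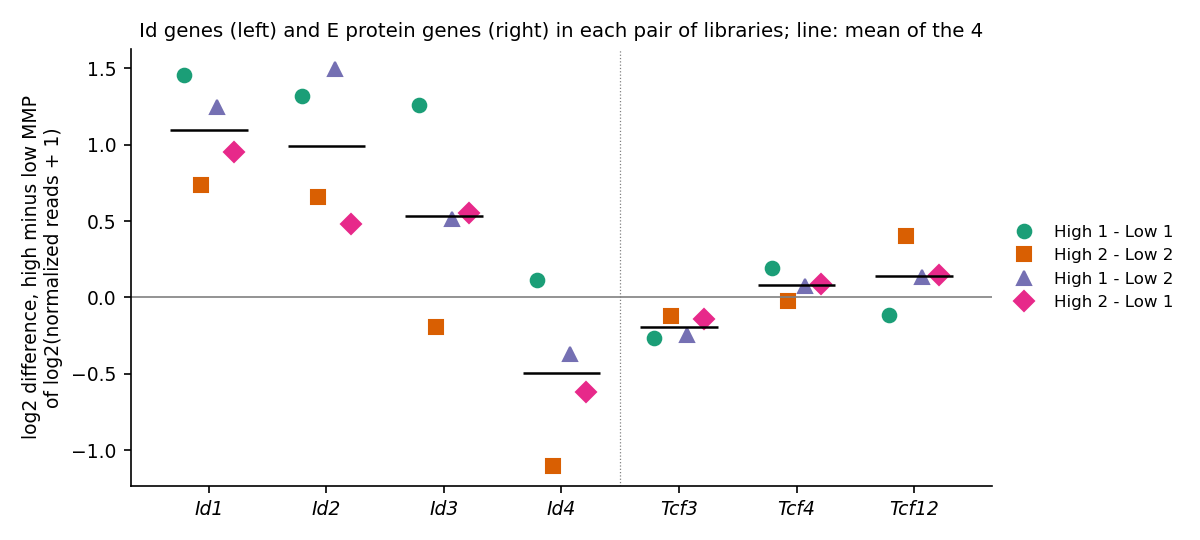
Difference between a high and a low MMP library (vertical axis, log2 of normalized reads + 1) for the Id genes at the left and the E protein genes at the right, with a symbol for each of the 4 pairings and a line for their mean. All pairings are above 0 for *Id1* (0.74 to 1.46) and *Id2* (0.48 to 1.49), *Id3* runs from -0.19 to 1.26, *Id4* is above 0 in 1 pairing (0.12), and the means of the E protein genes lie between -0.19 and 0.14.

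Among the other proteins that Id proteins or E proteins bind, no gene passed the limma threshold, which no gene of the table passed. Of 33 tissue-specific bHLH and Hes or Hey factors, 12 were measured and 7 had a mean of at least 10, with a median log2 difference of -0.08 beside -0.03 for all 12902 such genes. *Bhlhe40*, a repressor induced by stress and hypoxia, had the largest difference of them, 0.48, with values of 3700, 2470, 1749 and 2673 in high MMP samples 1 and 2 and low MMP samples 1 and 2. Its groups overlapped and its libraries stood in the same order as those of *Id3*. *Twist1*, a driver of epithelial-to-mesenchymal transition that pairs with E proteins, was at 487, 526, 564 and 644, a difference of -0.25 (limma adjusted p = 0.580). *Hes6*, a Hes family member, was at -0.15 with overlapping groups. Of 9 partners outside the bHLH class with a mean of at least 10, the median was 0.07. Both high MMP libraries were above in 3 of 9 (14.3% of all genes) and both low MMP libraries in 2 of 9 (23.7% of all genes), and 4 overlapped. These included the ETS factors *Ets2* at 0.28 and *Elk3* at 0.11, *Rbl2*, the retinoblastoma family member p130, at -0.24, and *Cav1*, the main protein of caveolae, at -0.24.

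The BMP pathway was examined from ligand to target, as the best known inducer of Id genes. Of 13 ligands 4 were measured, and only *Bmp7* had a mean of at least 10, at 198 and 162 normalized reads in high MMP samples and 151 and 166 in low MMP samples. Its groups overlapped (log2 difference 0.18, limma adjusted p = 0.811). Of 11 receptors and co-receptors, 8 had a mean of at least 10 and a median difference of -0.02. Both high MMP libraries were above in 0 of 8 and both low MMP libraries in 2 of 8, beside 14.3% and 23.7% of all genes. The type 1 receptor gene *Bmpr1a*, chosen after its values were seen, was at 2715, 3007, 2838 and 2697 normalized reads. *Acvr2b*, a type 2 receptor shared with activins, was at 99.3 and 157 in high MMP samples and 207 and 230 in low MMP samples, a log2 difference of -0.80 (SE 0.26, limma adjusted p = 0.472). The co-receptor genes *Rgma* and *Eng* were at -0.29 and -0.05, and *Acvr2a*, another type 2 receptor gene, at -0.21, with overlapping groups for *Eng* and *Acvr2a*.

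The Smads that carry the BMP signal were nearly level between the groups. *Smad1* had a log2 difference of 0.07, *Smad5* -0.04 and the common partner *Smad4* -0.08. As for every gene of the table, none of them passed the limma threshold. Inhibitors of the pathway with a mean of at least 10 numbered 11 of 20, with a median difference of 0.10, with both high MMP libraries above in 4 of 11 and both low MMP libraries above in 1 of 11 (14.3% and 23.7% of all genes). *Smad7*, an inhibitory Smad that is itself induced by the pathway and by TGF-beta, was at 1097 and 1458 in high MMP samples and 861 and 950 in low MMP samples (log2 difference 0.48, SE 0.17, limma adjusted p = 0.472). *Fstl1*, a secreted follistatin-like protein, was at 54.6 and 68.6 against 27.9 and 33.6 normalized reads (log2 difference 0.98, limma adjusted p = 0.472), from 32 to 82 reads per library. *Fst*, which encodes the activin and BMP binder follistatin, was at -0.33 with overlapping groups, and *Twsg1*, a secreted BMP-binding protein, at -0.02.

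Other genes known to respond to BMP were described as a list. Of 18 such genes, 13 were measured and 7 had a mean of at least 10. Both high MMP libraries were above in 2 of 7 and both low MMP libraries in 0 of 7 (14.3% and 23.7% of all genes). The median difference was 0.10, which turned to -0.05 without high MMP sample 1 and to -0.02 without low MMP sample 2. *Smad7*, given above as an inhibitor, is also in this list and had its largest difference, 0.48. *Runx2*, a bone-forming factor, was at 0.29, *Smad6*, the inhibitory Smad most tied to BMP, at -0.16, and *Gata3*, the luminal mammary factor, at 0.11. *Smad6* and *Gata3* had overlapping groups. Neither DESeq2 (0.584% of all genes called) nor limma (0%) called a gene in the lists of BMP ligands, receptors, Smads, inhibitors or other targets. Where so few genes are called, the absence of a call says little about lists of this size.

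Of 7 genes that control the stability of Id proteins, 3 had both high MMP libraries above and 2 both low MMP libraries above, where 14.3% and 23.7% of all genes did so. The median was 0.10, and it was -0.06 without high MMP sample 2. *Fzr1* encodes Cdh1, the activator of the anaphase-promoting complex that marks some Id proteins for breakdown. It was at 2081 and 2319 normalized reads in high MMP samples and at 1095 and 1344 in low MMP samples, a log2 difference of 0.86 (SE 0.14). It did not pass in limma (adjusted p = 0.472) and was called by DESeq2 (adjusted p = 3.47e-05). *Dyrk1b*, a kinase that phosphorylates the Id2 protein, was at -0.41, and *Usp1*, which removes ubiquitin from Id proteins, at -0.18 with overlapping groups. *Cdc20*, another activator of the anaphase-promoting complex, was at 0.10.

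Among other regulators of Id genes, 9 had a mean of at least 10 and a median difference of -0.02. *Egr1*, which induces *Id1* after growth factor or stress signals, was at 10354 and 9783 normalized reads in high MMP samples and 6032 and 8141 in low MMP samples (log2 difference 0.52, SE 0.17, limma adjusted p = 0.472). *Atf3*, a stress factor that represses *Id1* together with Smads, was at 1934 and 490 in high MMP samples and 377 and 1515 in low MMP samples. The 2 libraries with high *Fos* were thus also those with high *Atf3*. *Myc*, an inducer of *Id2*, was at 5241, 7404, 8916 and 6247, a difference of -0.26 with overlapping groups. *Nfil3*, a basic leucine zipper factor, was at 0.27, also with overlapping groups.

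Among 6 measured targets of E proteins or Id proteins at a mean of at least 10, the median was 0.14. *Cdkn2c*, which encodes the cell cycle inhibitor p18, was at 2201 and 2110 normalized reads in high MMP samples and 1526 and 1541 in low MMP samples. The groups differed by 0.49 on the log2 scale (SE 0.07, limma adjusted p = 0.472, DESeq2 adjusted p = 0.0412). *Cdh1*, which encodes E-cadherin and is repressed by E proteins, was at 3903 and 4726 against 5421 and 5426, a log2 difference of -0.34 (limma adjusted p = 0.498). *Cdkn1a*, the p21 gene that E proteins activate, was at 0.17 with overlapping groups.

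**Figure D3:**
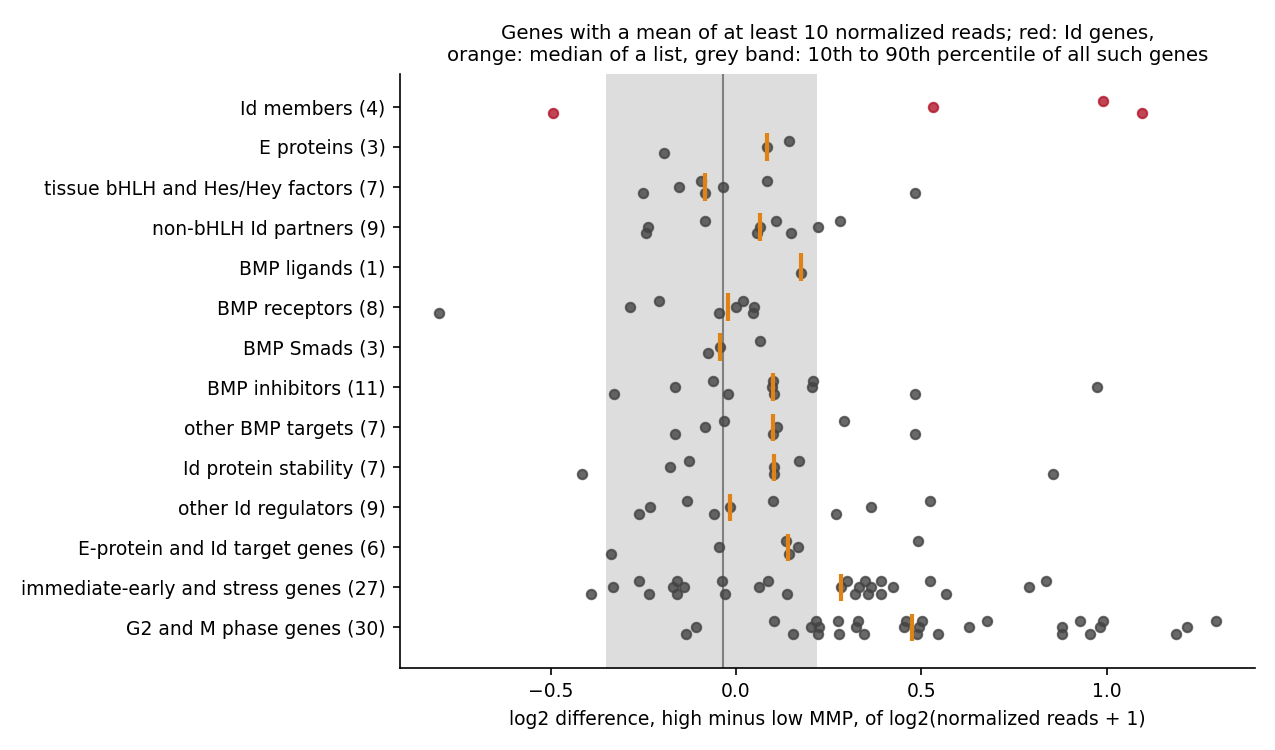
Difference between high and low MMP cells (horizontal axis, log2 of normalized reads + 1) for each gene with a mean of at least 10 in the lists named at the left, with the number of such genes in parentheses. Red points are the Id genes, orange bars the median of each other list, the grey line the median of all genes (-0.03) and the grey band their 10th to 90th percentile (-0.35 to 0.22). *Id1*, *Id2* and *Id3* lie right of the band and *Id4* left of it, and the medians of the pathway lists lie inside it, while that of the G2 and M phase genes (0.47) and that of the immediate-early genes (0.28) lie right of it.

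Immediate-early and stress genes differed both between the sorted groups and between libraries of a group. Of 27 with a mean of at least 10, 8 had both high MMP libraries above and 1 both low MMP libraries above, beside 14.3% and 23.7% of all genes, and 18 had overlapping groups. *Egr2*, an early growth response factor, was at 246 and 207 normalized reads in high MMP samples and 99.4 and 170 in low MMP samples (log2 difference 0.79, limma adjusted p = 0.517). *Ier3*, the most abundant per length, was at 12107 and 10781 against 8154 and 10570 (0.30), also with no overlap. *Btg2*, an anti-proliferative gene, and *Egr3* had differences of 0.84 and 0.57 with overlapping groups. None of the list passed the limma threshold, which no gene of the table passed. Their median log2 difference was 0.28 over the 4 libraries, -0.12 without high MMP sample 1 and -0.17 without low MMP sample 1. It was 0.60 between the samples numbered 1 and -0.46 between the samples numbered 2. It was 0.04 between high MMP sample 1 and low MMP sample 2, the libraries with high *Fos*, and 0.38 between high MMP sample 2 and low MMP sample 1. *Fosb* and *Zfp36*, chosen after their values were seen, were also highest in these libraries with high *Fos*, with *Fosb* at 4855 and 5063 normalized reads in the former libraries and at 601 and 389 in the latter.

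Between the libraries with high *Fos* the difference was 1.24 for *Id1*, 1.49 for *Id2*, 0.51 for *Id3* and -0.37 for *Id4*. Between the libraries with low *Fos* it was 0.95 for *Id1*, 0.48 for *Id2*, 0.55 for *Id3* and -0.62 for *Id4*. These pairs were chosen after the values of *Fos* were seen, and each has 1 library a group and no replicate check.

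**Figure D4:**
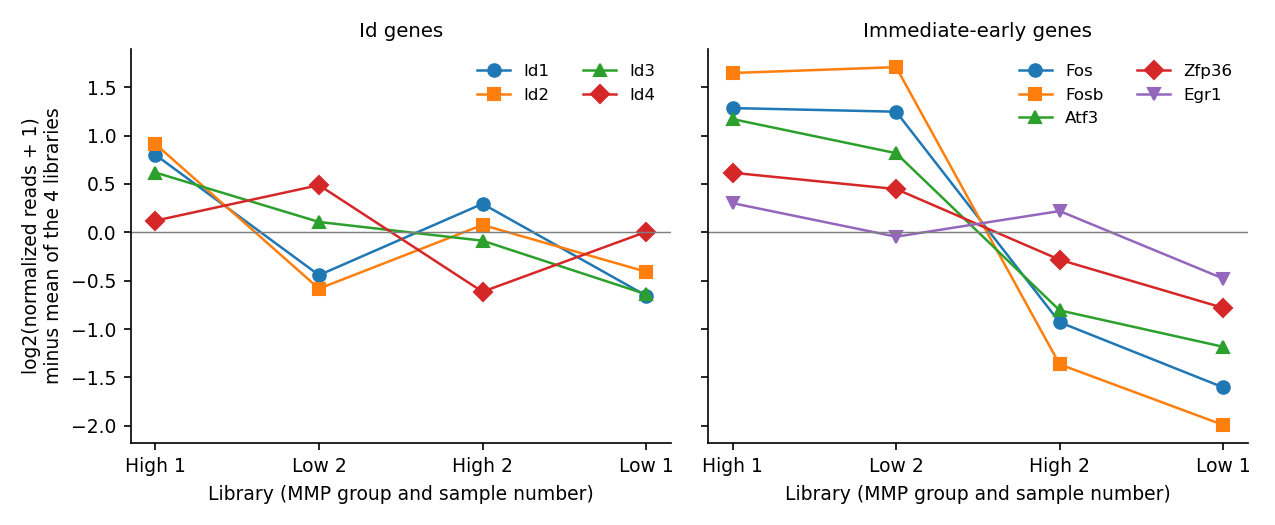
Level of each gene in each library minus its mean over the 4 (vertical axis, log2 of normalized reads + 1), with the libraries placed in falling order of *Fos* and lines only joining the points of a gene. *Fos*, *Fosb*, *Atf3* and *Zfp36* are high in high MMP sample 1 and low MMP sample 2. *Egr1* does not follow them and is lower in low MMP sample 2 than in high MMP sample 2. *Id3* keeps the same order of libraries as *Fos* over a smaller range, while *Id1* and *Id2* are lower in low MMP sample 2 than in high MMP sample 2.

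Genes of the G2 and M phases, which mark dividing cells, were the list with the most genes apart between the groups. Of 30, all with a mean of at least 10, 27 had both high MMP libraries above both low MMP libraries, with a median log2 difference of 0.47, and 1 had both low MMP libraries above (14.3% and 23.7% of all genes). DESeq2 called 15 of them higher, where it called 0.584% of all genes in either direction. Examples were *Nusap1* and *Prc1*, spindle proteins of dividing cells, at 1.22 and 1.19, *Ube2c*, the ubiquitin-conjugating enzyme of the anaphase-promoting complex, at 1.30 (limma adjusted p = 0.472, DESeq2 adjusted p = 1.57e-15) and *Top2a*, the topoisomerase of dividing cells, at 0.96 (limma adjusted p = 0.472, DESeq2 adjusted p = 1.36e-09). The list summed to 164539 and 180410 normalized reads in high MMP samples and to 116356 and 119118 in low MMP samples. This sum was highest in high MMP sample 2, in which *Id1*, *Id2* and *Id3* were all below their level in high MMP sample 1. Single genes of the list went both ways between high MMP samples 1 and 2. *Ube2c* (4946 and 4777) and *Nusap1* (2991 and 2912) were higher in sample 1, and *Prc1* (6256 and 7054) and *Top2a* (37134 and 38824) in sample 2. The part of cell cycle phase or of the immediate-early genes in the differences of the Id genes was not tested.

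The genes whose pattern over the 4 libraries was most like that of *Id2* were found by the Euclidean distance between mean-centred log2 profiles, among 9998 genes whose mean was at least 100. The nearest was *Aldh3a1*, an aldehyde dehydrogenase (distance 0.33), followed by *Sfn*, which encodes 14-3-3 sigma (0.34), *Id1* (0.37), *Gsta4*, a glutathione S-transferase (0.46), and *Inpp4b*, a phosphoinositide phosphatase (0.51). *Aldh3a1* was at 174 and 112 normalized reads in high MMP samples and 71.5 and 82.3 in low MMP samples. *Id1* was thus the third nearest gene to *Id2*, and *Id3* was at rank 131 (0.80). As *Id2* was chosen for its difference, genes near it share that difference by construction, and 4 points set each distance.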

How the data were processed

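The authors aligned the reads to mouse GRCm38 (mm10), and the submitters' processing notes name STAR and HTSeq. Their versions, the annotation release and the treatment of reads with several matches are not given in the sources used here. The deposited values are a normalized signal per gene, scaled by the authors so that each library totals 20000000, for 20197 genes above 0 in at least 2 libraries. The table held 0 columns of other samples.

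Dividing each column by its smallest step gave whole reads for 100% of values (tolerance 0.01), which set the depth and served DESeq2 1.42.0 and edgeR 4.0.16 as alternatives. Gene names came from GENCODE M21, which matched 19993 identifiers. The main test was limma 3.58.1 (lmFit, eBayes with trend) in R 4.3.3 on log2(value + 1), group as the only factor, with Benjamini-Hochberg adjustment over all 20197 genes and a threshold of 0.05. Scripts were tested on simulated data.

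The members and lists were chosen with earlier results of these data known. Lists were written by hand and are described by counts and medians over genes with a mean of at least 10. Named are the Id and E protein genes, in each other list the 3 genes of largest difference and the 1 of highest level per length, and the 5 genes nearest to *Id2* in pattern. Any other gene is marked as chosen after its values were seen. Alternatives were other pseudocounts, filters and scalings, no trend, the replicate number as a block, and leaving out each library.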

Additional observations from a re-analysis of the deposited data

How the results depend on the processing

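Over the counts of called genes and the differences of the Id genes, 100 recomputed values kept their direction and side of the threshold, 9 counts moved by over 1.5 times, and 2 values, both of *Id1*, newly passed the threshold. *Id1*, *Id2*, *Id3* and *Id4* kept their sign under every alternative in which they were computed. Calls depended on the tool: limma called 0 genes under every setting, including the replicate block (1055 genes at an unadjusted p under 0.05) and without any 1 library, edgeR without a block called 0 (1423 at an unadjusted p under 0.05), and DESeq2 called 118. Of *Id1*, *Id3* and *Id4*, DESeq2 called 1 (*Id1*, 1.16), and of the lists it called 18 genes. For *Id1* the adjusted p ran from 0.151 with only genes of a mean of at least 1 tested to 0.900 without low MMP sample 2 in limma, and the cause of the tools' difference was not tested.

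Libraries that carry the same number tended to deviate in opposite directions from their group (correlation -0.42 over 12902 genes). This cannot settle whether the numbers pair the samples, as 2 libraries a group do not separate pairing from other differences between libraries. The block therefore only joins libraries that share a number. With the replicate block, edgeR called 106 genes, 1 of the 3 Id genes (*Id1*, 1.14, adjusted p = 3.27e-06) and 12 list genes, while limma with the block gave an adjusted p of 0.798 for *Id1*. With crossed numbers as the block, chosen after seeing the data, edgeR called 733 genes, 2 of the 3 Id genes and 37 list genes, and limma called 0.

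Leaving out each library in turn moved *Id1* between 0.84 and 1.35, *Id2* between 0.57 and 1.41, *Id3* between 0.16 and 0.91 and *Id4* between -0.86 and -0.13. With 1 library left in a group, that library is assumed to vary like the others. The sign of other named genes turned for some library left out, with ranges of -0.46 to 0.0400 for *Acvr2a*, -0.30 to 0.21 for *Eng*, -0.15 to 0.0014 for *Smad4*, -0.0701 to 0.29 for *Gata3*, -0.64 to 1.37 for *Atf3*, -2.11 to 0.0268 for *Col1a1*, -0.95 to 0.25 for *Cd68*, -0.0120 to 0.14 for *Smad1*, -0.80 to 0.14 for *Fst*, -0.0572 to 0.60 for *Nfil3*, -0.36 to 0.19 for *Krt18* and -0.16 to 1.30 for *Egr3*. *Twsg1* turned to 0.0186 under median-of-ratios rescaling and DESeq2 and to 0.0146 under edgeR with and without the block, and *Eng* to 0.0127 under edgeR and 0.0159 under DESeq2. Of 16 list medians, 9 changed sign under some alternative. Depth limits *Id4* most, with 24 to 50 reads per library.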
